A study of Mus musculus with 9 samples.

Results

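The Rab GTPases are the largest branch of the Ras superfamily of small GTP-binding proteins. They were taken here as all rows of the expression table whose gene name is Rab, a number and at most one letter from a to d, with at least 10 counts summed over the 9 libraries. That gave 58 genes of 26770 gene rows. A 59th matching row, Rab3c, had 4 counts in all and was left out. RNA was sequenced from monocytes taken from the spleens of wild-type mice, in 3 groups of 3 libraries. The untreated group received DMSO (a solvent) at 1 part in 1000, the LPS group received lipopolysaccharide (a component of the outer membrane of Gram-negative bacteria) at 40 ng/ml for 5 hours, and the octanal group was primed with low-dose LPS and then given octanal at 20 µM for 18 hours. Octanal is an aldehyde that activates the olfactory receptor Olfr2, whose role in monocytes in heart injury the study set out to examine.

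The labels of single libraries count up within a group, with DMSO at 1 in 1000, 1001 and 1002 and octanal for 18, 19 and 20 hours, and the libraries of a group were treated as alike. The labels do not say that the LPS cells were kept as long as the octanal cells. Nor do they say that DMSO was given outside the untreated group. They give no LPS concentration or duration for the octanal group and no time in culture for the untreated group. Octanal, LPS exposure, time in culture and solvent therefore cannot be told apart. In LPS against untreated, the same holds for LPS, time in culture and solvent. Changes written below as with LPS or with octanal are differences between these groups. No batch is named, and whether replicates were separate animals or cultures is not stated, so p-values measure the spread between these libraries, which may be technical. Libraries held 29594291 to 38388421 counts.

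A Rab protein is a switch. Bound to GTP it sits on one kind of membrane and recruits effectors that tether, move or fuse vesicles, and bound to GDP it is drawn off the membrane by GDP dissociation inhibitor (GDI). Guanine nucleotide exchange factors (GEFs) turn it on, GTPase-activating proteins (GAPs) turn it off, and a prenyl group added by Rab geranylgeranyl transferase anchors it. In monocytes and their relatives Rab proteins direct the uptake and digestion of particles, the delivery of Toll-like receptors and the release of granules and cytokines.

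Every LPS library gave a smaller share of its counts to Rab genes than any other library. The 58 Rab genes took 0.519%, 0.438% and 0.517% of all counts untreated (replicates 1, 2 and 3), 0.358%, 0.374% and 0.389% with LPS and 0.428%, 0.452% and 0.451% with octanal. The exact two-sided permutation test gave p = 0.1 for LPS against untreated and for octanal against LPS, the smallest value that 3 against 3 libraries allow, and p = 0.3 for octanal against untreated. In bulk RNA, fewer cells of a type and less RNA per cell cannot be told apart.

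Gene by gene, 22 of the 53 Rab genes that passed the filter on low counts were called in LPS against untreated (edgeR quasi-likelihood test, adjusted p under 0.05), which is 41.5% beside 32.8% of all 15447 genes tested. Of these, 20 were lower with LPS (37.7% of the Rab genes, beside 17.6% of all genes) and 2 were higher (3.77%, beside 15.2% of all genes). Among the calls of at least 2-fold were 10 falls (18.9% of the Rab genes, beside 10.2% of all genes) and 1 rise (1.89%, beside 5.75%). The median log2 fold change was -0.26 over the Rab genes and 0.01 over all genes. CPM values are counts scaled to a common library size, with a factor for library composition. Those of both groups did not overlap for 26 Rab genes that were lower (49.1%, beside 24.8% of all genes). The same held for 7 that were higher (13.2%, beside 26.7%).

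In octanal against LPS, none of the 53 Rab genes was called by edgeR, as for all genes tested (0.0%). At an unadjusted p under 0.05, 16 Rab genes were higher (30.2%, beside 13.6% of all genes). Rab2b and Rab23 were lower (3.77%, beside 8.69%). The CPM of both groups did not overlap for 20 Rab genes that were higher with octanal (37.7%, beside 18.3% of all genes) and for 3 that were lower (5.66%, beside 19.9%). The DESeq2 Wald test, run as an alternative, gave 11 higher and 1 lower of the 50 Rab genes with an adjusted p, beside 10.9% higher and 3.13% lower over all genes. The fit of these 6 libraries alone gave 8 of 51 (15.7%), all higher, beside 9.27% of all genes in either direction and 6.35% higher. With no filter on low counts it was 2 (3.45%, beside 1.29% of all genes). With a filter of 10 CPM in 3 libraries it was 1 (2.7%, beside 3.44%). In octanal against untreated, 8 of 53 Rab genes were called (15.1%, beside 8.67% of all genes). Rab20 was higher (1.89%, beside 2.63% of all genes). Rab28, Rab34, Rab39, Rab3d, Rab44, Rab7b and Rab8b were lower (13.2%, beside 6.03% of all genes). At 2-fold or more there were 5 falls (9.43%, beside 4.18% of all genes) and 1 rise (1.89%, beside 1.29%). The comparisons share libraries, so low values in the LPS libraries lower LPS against untreated and raise octanal against LPS at once. The results of these comparisons are therefore not independent.

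**Figure D1:**
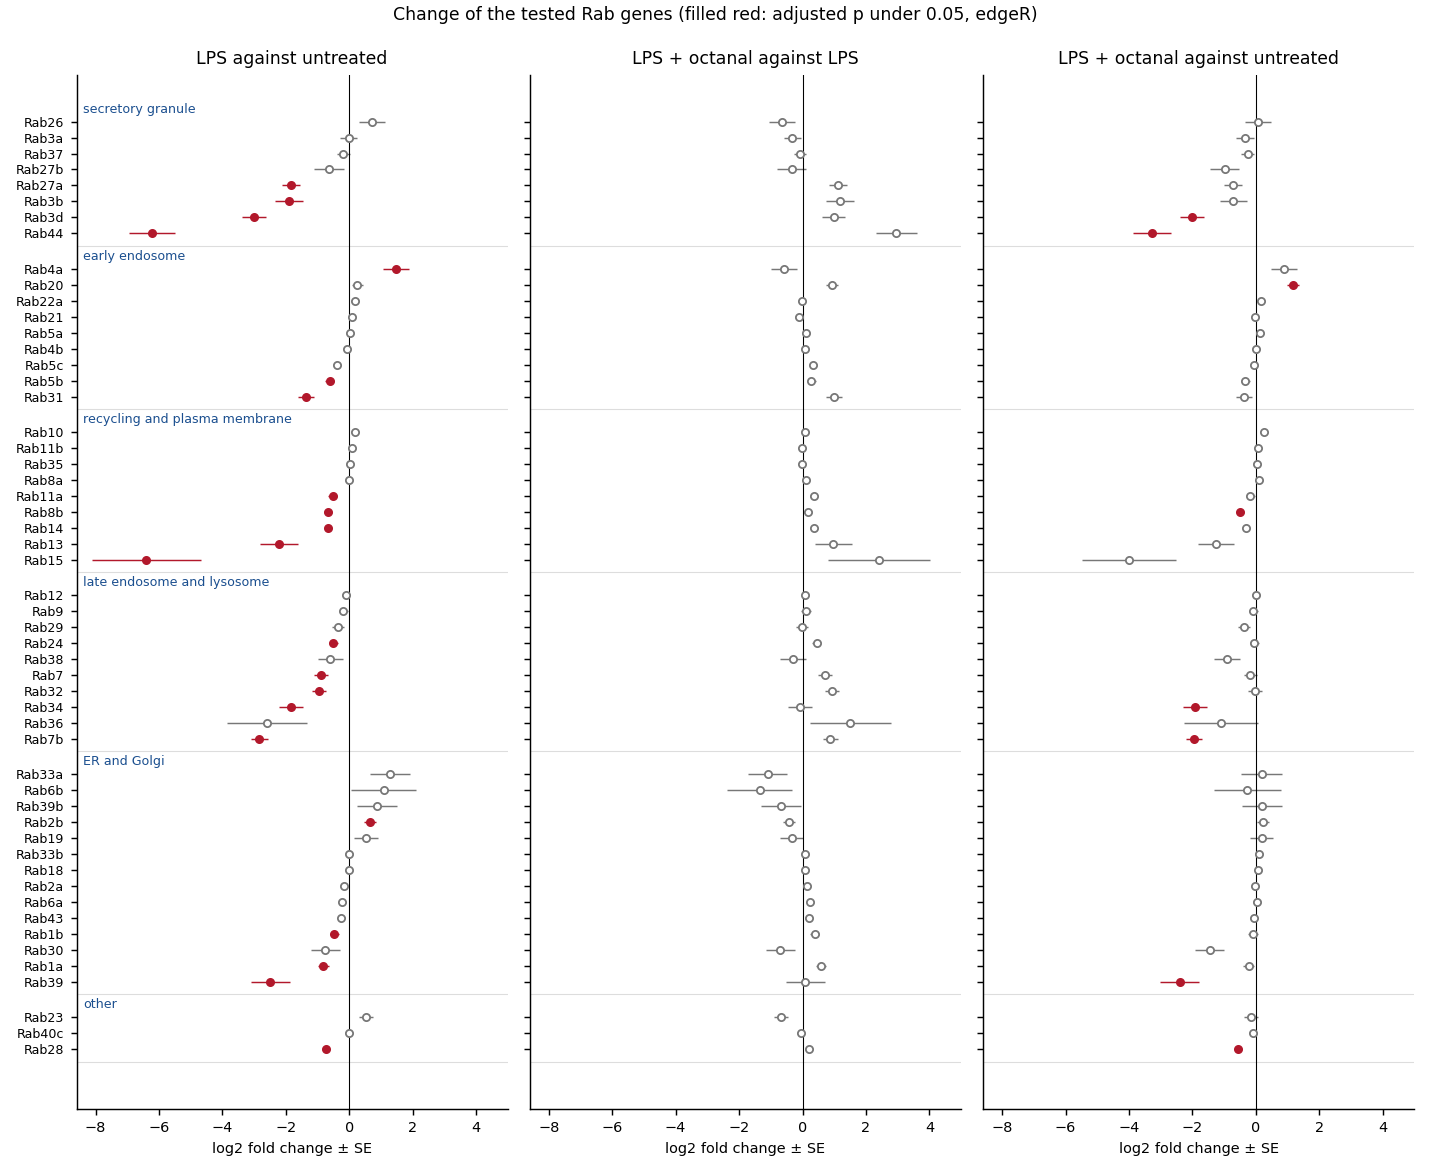
Log2 fold change with its standard error (x axis) of the 53 tested Rab genes (y axis), grouped by the membrane each is known for, in the 3 comparisons; filled red points passed an adjusted p under 0.05 in edgeR. In LPS against untreated 20 red points lie left of 0 and 2 right of it, in octanal against LPS there are none, and in octanal against untreated Rab20 is the red point to the right.

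The RNA pool was uneven between members. Fragments per kilobase and depth (FPKM), which the authors deposited and which allow levels of different genes to be compared per length, ran from 292 for Rab7 down to 0.00938 for Rab9b as means over the 9 libraries, with a median of 13.5. Rab7, Rab5c, Rab1b, Rab1a and Rab14 together made 41.7% of all Rab FPKM. These act, in that order, at late endosomes, early endosomes, the path from endoplasmic reticulum (ER) to Golgi (both Rab1 genes) and between Golgi and endosomes. Of the 58 genes, 46 had a mean FPKM of at least 1, 32 of at least 10 and 2 of at least 100. The Rab genes that fell with LPS had a median FPKM of 20.7, and those tested and not called one of 15.6. In the order of levels, Rab1b (83.7 FPKM) and Rab1a (81.3 FPKM) did not differ beyond their spread in untreated cells, at 92.2 ± 12.3 and 98.5 ± 16.6 FPKM (SD, n = 3).

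**Figure D2:**
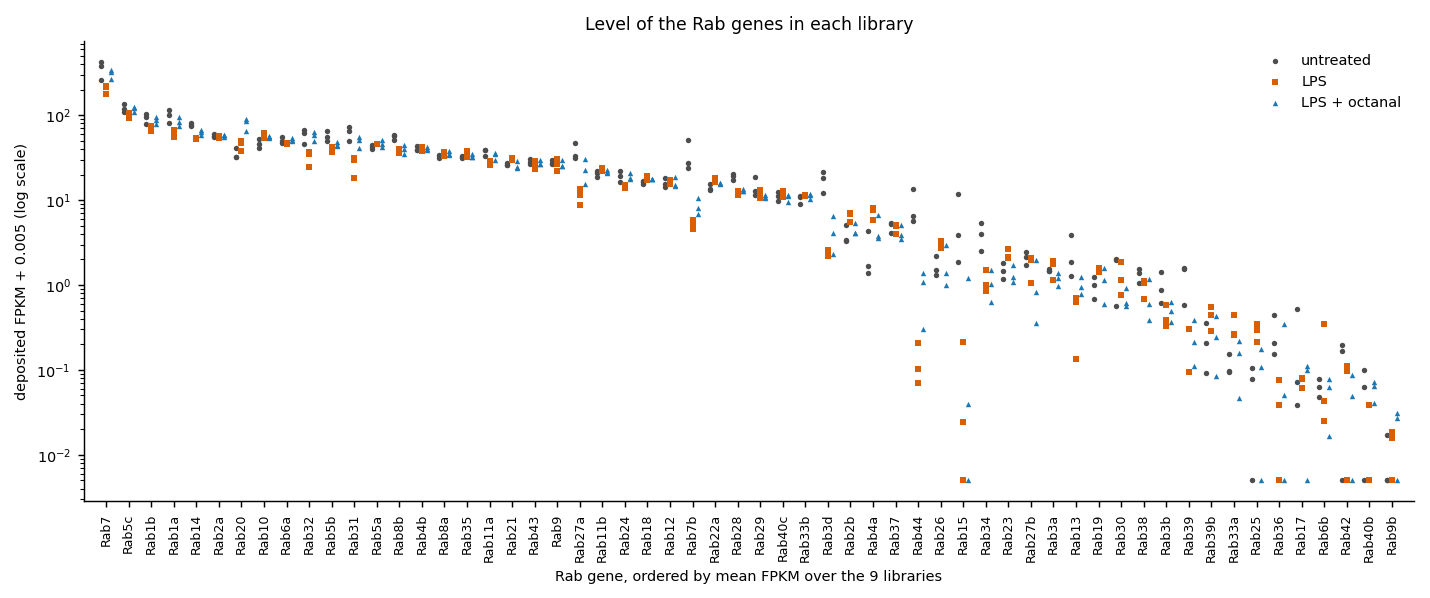
Deposited FPKM plus 0.005 (log y axis) of the 58 Rab genes (x axis, ordered by mean FPKM) in each library; each symbol is 1 library, 3 per group. Rab7 is the highest at a mean of 292 FPKM, and the LPS symbols of Rab44, Rab15, Rab3d and Rab7b sit well below the untreated ones.

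Promoter sequence was at hand for 47 of the 58 genes in the RefSeq table (build GRCm38.p6, 250 bases before to 50 after each start). The 4 stretches below, each the 250 bases up to the start, belong to genes that stand for different courses: Rab20 (higher with octanal than untreated), Rab32 (lower with LPS, overlapping the untreated values with octanal), Rab27a (lower with LPS, intermediate with octanal) and Rab34 (lower than untreated in both treated groups). Capitals mark a match, on either strand, to an E-box (CACGTG) in Rab20 and Rab27a, to the PU.1 motif (GAGGAAGT) in Rab32 and to the AP-1 motif (TGANTCA) in Rab34. They lie at chr8:11478641-11478890 on the minus strand, chr10:10558208-10558457 on the minus strand, chr9:73063898-73064147 on the plus strand and chr11:78188177-78188426 on the plus strand. The RefSeq starts of Rab20, Rab32 and Rab27a lie inside the GENCODE spans of these genes given with their values, so the Rab27a stretch and the near ends of the Rab20 and Rab32 stretches, with the marked motifs, are within those spans. The Rab34 stretch ends before the span of its gene.
Rab20: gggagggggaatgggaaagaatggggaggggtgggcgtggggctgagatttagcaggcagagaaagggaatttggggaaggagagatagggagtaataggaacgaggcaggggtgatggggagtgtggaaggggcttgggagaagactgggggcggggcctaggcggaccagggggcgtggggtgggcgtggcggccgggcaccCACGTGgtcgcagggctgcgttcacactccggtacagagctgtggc
Rab32: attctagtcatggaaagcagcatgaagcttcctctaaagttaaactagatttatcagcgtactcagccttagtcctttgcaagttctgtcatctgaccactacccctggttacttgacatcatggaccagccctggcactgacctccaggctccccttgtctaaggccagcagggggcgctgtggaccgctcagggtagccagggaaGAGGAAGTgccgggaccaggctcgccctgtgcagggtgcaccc
Rab27a: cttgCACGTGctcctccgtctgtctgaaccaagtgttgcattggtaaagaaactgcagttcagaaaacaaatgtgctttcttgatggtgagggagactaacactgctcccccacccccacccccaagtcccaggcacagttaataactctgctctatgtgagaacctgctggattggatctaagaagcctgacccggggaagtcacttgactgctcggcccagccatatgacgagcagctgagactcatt
Rab34: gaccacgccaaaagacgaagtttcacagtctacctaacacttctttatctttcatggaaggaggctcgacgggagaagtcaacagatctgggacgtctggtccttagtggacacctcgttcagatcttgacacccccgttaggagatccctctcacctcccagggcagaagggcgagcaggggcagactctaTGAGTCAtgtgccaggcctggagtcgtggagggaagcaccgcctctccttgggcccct

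The E-box was found in 6 of the 47 Rab promoters (12.8%, beside 8.09% of all 27025 genes in the table), namely Rab20, Rab21, Rab23, Rab24, Rab27a and Rab5a. These 6 include a gene higher with octanal, genes lower with LPS and genes not called. The PU.1 motif was in 2 (4.26%, beside 3.69%), Rab32, lower with LPS, and Rab2b, higher with LPS. The AP-1 motif was in 3 (6.38%, beside 8.97%), Rab15 and Rab34, both lower with LPS, and Rab39b, not called. A C/EBP motif (TTGCNNAA) was in 4 (8.51%, beside 12.2%). The NF-kappaB motif was in none of the 47, beside 0.281% of all genes. The 4 promoters shown were picked by hand, each with a motif that it holds. None of them held another of these motifs, and a match describes letters, not a bound site. Whether a motif goes with a course was not tested.

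Rab genes of secretory granules had the lowest median change with LPS. Of 8 tested, 4 were lower (beside 17.6% of all genes), none was higher (beside 15.2%), and the median log2 fold change was -1.24. Rab44 is an atypical long Rab with an EF-hand domain that is linked to granule release in mast cells (chr17:29114145-29148980, GRCm38, as are all gene positions given here). It stood at 59.1, 23.3 and 29.5 CPM untreated, 0.283, 0.438 and 0.775 CPM with LPS and 4.26, 1.26 and 6.22 CPM with octanal. The 3 groups did not overlap, with the octanal libraries between the others. Rab44 fell by 6.22 ± 0.713 (SE) on the log2 scale with LPS, 74.5-fold (adjusted p = 0.00102, edgeR). It remained 9.57-fold lower with octanal than untreated (log2 fold change -3.26 ± 0.599, adjusted p = 0.0162), while the octanal libraries stood 7.79-fold above the LPS libraries at an adjusted p of 0.0642.

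Rab3d is the Rab3 protein of secretory granules outside neurons (chr9:21907491-21918192). It measured 90.3, 48.3 and 81.0 CPM untreated, 8.75, 10.3 and 8.58 CPM with LPS and 16.5, 9.83 and 28.1 CPM with octanal. All untreated libraries were above all treated ones, and the octanal range took in the highest LPS value. It fell 7.96-fold with LPS (log2 fold change -2.99 ± 0.381, adjusted p = 0.00134, edgeR) and was 4.04-fold lower with octanal than untreated (-2.01 ± 0.366, adjusted p = 0.0155). Without octanal replicate 1 the latter had an adjusted p of 0.0504. Of its relatives, Rab3b fell with LPS from 2.98 ± 1.16 to 0.798 ± 0.346 CPM (SD, n = 3; adjusted p = 0.0143, or 0.0524 without LPS replicate 1). Rab3a, the synaptic vesicle member, was at 2.39 ± 0.202 and 2.35 ± 0.561 CPM and was not called (log2 fold change -0.02, and above 0 on the FPKM scale).

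Rab27a docks secretory granules and lysosome-related organelles at the plasma membrane (chr9:73044854-73097629, the gene of the E-box stretch above). It measured 112, 99.0 and 166 CPM untreated, 35.4, 42.4 and 27.4 CPM with LPS and 72.6, 50.9 and 104 CPM with octanal. LPS libraries were the lowest without overlap, and the octanal and untreated ranges overlapped. Rab27a fell 3.58-fold with LPS (log2 fold change -1.84 ± 0.296, adjusted p = 0.00321, edgeR), the adjusted p for octanal against LPS was 0.0837 at 2.17-fold, and that for octanal against untreated was 0.146. Rab27b, its close relative, was at 12.1 ± 1.65 CPM untreated, 7.75 ± 2.21 with LPS and 6.12 ± 4.42 with octanal (SD, n = 3) and was not called. Rab26 and Rab37, which act in granule maturation and mast cell granules, were not called either, with log2 fold changes of 0.71 and -0.18 with LPS.

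Of 3 lists of granulocyte markers, the neutrophil list was low with LPS and intermediate with octanal in its sum, as Rab44 was. The 15 neutrophil markers summed to 14017 to 27272 CPM untreated, 1896 to 2348 CPM with LPS and 6112 to 13742 CPM with octanal, and 14 of the 15 were lower with LPS. The list includes S100a8 and S100a9, which monocytes also express and which had the most counts of the 15 in each group. Not every marker followed the sum. With octanal, Lcn2 (1218 to 1925 CPM) and Ly6g (34.6 to 67.3 CPM) overlapped their untreated ranges of 699 to 1637 and 7.33 to 57.0 CPM. The untreated range of Ly6g also took in its LPS range of 10.9 to 28.4 CPM. S100a8 with octanal (2122 to 3628 CPM) overlapped its untreated range of 2989 to 5428 CPM. The same held for S100a9 (1999 to 5117, untreated 5098 to 10414 CPM) and Mmp8 (239 to 622, untreated 560 to 813 CPM). Mpo with octanal (0.691 to 1.51 CPM) overlapped its LPS range of 0.564 to 0.823 CPM. Retnlg with octanal (1.75 to 6.78 CPM) overlapped its LPS range of 1.41 to 2.13 CPM. Elane with octanal (0.259 to 0.618 CPM) overlapped both its LPS range (0 to 0.595 CPM) and its untreated range (0.390 to 17.0 CPM). The 7 eosinophil markers summed to 18.4 to 37.2 CPM untreated and were low in both treated groups, at 2.42 to 4.65 and 2.52 to 3.62 CPM, with Epx at 0 in every LPS library. The 7 basophil and mast cell markers summed to 43.0 to 64.1 CPM untreated, 47.2 to 51.7 CPM with LPS and 26.9 to 77.2 CPM with octanal, so these ranges overlapped. Of the 4 of them tested, 1 was called lower with LPS. Kit made up most of each sum, at 36.7 to 59.1 CPM untreated and 44.9 to 48.7 CPM with LPS. Every other marker on this list had fewer counts over the LPS libraries than over the untreated ones. Mcpt8, for example, was at 0.393 to 0.885 CPM untreated and 0.111 to 0.206 CPM with LPS. The overlap of the sums therefore describes Kit more than the rest of the list. Ms4a2 and Fcer1a, with 30 and 12 counts over all untreated libraries, were at 0 in every LPS library. The part of these cells in the Rab results was not tested.

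Markers of the labelled cell type differed between the groups. Among 9 classical monocyte markers 7 were lower and 1 higher with LPS, with sums of 4106 to 7822 CPM untreated, 1471 to 1696 CPM with LPS and 2514 to 3767 CPM with octanal. Ly6c2, the surface marker that defines classical mouse monocytes, ranged from 2.82 to 249 CPM untreated, 0.387 to 7.90 CPM with LPS and 0.625 to 1.01 CPM with octanal. Ccr2, their chemokine receptor, ranged from 4.65 to 30.1, 0.885 to 1.82 and 0.658 to 2.85 CPM, with all treated libraries below all untreated ones, while the untreated and LPS ranges of Ly6c2 overlapped. The 7 non-classical monocyte markers summed to 474 to 508 CPM untreated, 556 to 616 CPM with LPS and 539 to 551 CPM with octanal, with 1 higher and 1 lower with LPS. The summed levels of 8 T cell markers ran from 117 to 542 CPM untreated, 967 to 1162 CPM with LPS and 576 to 864 CPM with octanal, and all 8 were higher with LPS. The part of these shifts in the Rab results was not tested.

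Of the 11 Rab genes of late endosomes and lysosomes, 10 were tested, and all 10 had a log2 fold change below 0 in LPS against untreated. Of these, 5 were called lower (beside 17.6% of all genes), and the median log2 fold change was -0.74. Rab7 drives fusion of late endosomes with lysosomes and was the most abundant Rab RNA (chr6:87999106-88045270). It measured 891, 576 and 997 CPM untreated, 386, 486 and 465 CPM with LPS and 606, 808 and 775 CPM with octanal. LPS libraries were the lowest, without overlap. It fell 1.84-fold with LPS (log2 fold change -0.88 ± 0.215, adjusted p = 0.016, edgeR). The adjusted p was 0.0502 to 0.0694 without LPS replicate 1, LPS replicate 3 or untreated replicate 3. Rab7 made up 20.7% ± 2.92 of all Rab FPKM untreated, 15.8% ± 1.03 with LPS and 19.9% ± 1.49 with octanal (SD, n = 3).

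Rab7b, a late endosome and trans-Golgi Rab known to send Toll-like receptors to degradation, fell in both comparisons with untreated cells (chr1:131688695-131715439). It measured 189, 90.4 and 116 CPM untreated, 17.8, 17.1 and 20.5 CPM with LPS and 39.1, 28.5 and 34.4 CPM with octanal. The 3 groups did not overlap. The fall with LPS was 7.13-fold (log2 fold change -2.83 ± 0.264, adjusted p = 0.000629, the lowest among the Rab genes), and it was still 3.87-fold lower with octanal than untreated (-1.95 ± 0.255, adjusted p = 0.0049, edgeR). Both calls passed in every fit that left out 1 library, as did those of Rab44. Rab7b went from 8.65% ± 2.85 of the FPKM of the Rab7 pair to 2.54% with LPS and 2.71% with octanal.

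Rab32, which serves lysosome-related organelles and brings antimicrobial activity to vacuoles with bacteria, measured 151, 98.8 and 150 CPM untreated, 52.8, 75.6 and 79.2 CPM with LPS and 108, 135 and 151 CPM with octanal (chr10:10545002-10558265). It was named after its values were seen. The octanal libraries overlapped the untreated ones and lay above all LPS libraries. Rab32 fell 1.93-fold with LPS (log2 fold change -0.95 ± 0.216, adjusted p = 0.0124, edgeR). Its octanal against LPS difference was 1.90-fold at an adjusted p of 0.0715.

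Rab34, which positions lysosomes and acts in phagosome maturation, took another course (chr11:78188430-78192193). It measured 8.37, 6.15 and 4.07 CPM untreated, 1.41, 1.66 and 2.16 CPM with LPS and 2.27, 1.58 and 1.05 CPM with octanal. Both treated groups were below all untreated libraries and overlapped each other. It was 3.55-fold lower with LPS (adjusted p = 0.00861, edgeR) and 3.78-fold lower with octanal than untreated (adjusted p = 0.02, and 0.0516 to 0.0793 without octanal replicate 2, octanal replicate 3 or untreated replicate 1). Rab24, an autophagy-linked Rab, was the other one called, at 24.1 ± 4.03 CPM untreated and 17.1 ± 0.751 with LPS (SD, n = 3; adjusted p = 0.0309, edgeR). That call was lost in 5 of the 9 fits without 1 library, at 0.0676 to 0.101 (any LPS replicate, or untreated replicate 1 or 3), and in the fit of the 2 groups alone, at 0.0547. Rab9, Rab12, Rab29, Rab36 and Rab38 were not called, with log2 fold changes of -2.60 to -0.09. Of 12 macrophage markers, 7 were lower and none higher with LPS. Their sums were 1544 to 2635 CPM untreated, 470 to 803 CPM with LPS and 874 to 1047 CPM with octanal. Cd68 and Apoe had the most counts of the list in the untreated and LPS libraries. Adgre1, Spic and Marco had more counts over the LPS libraries than over the untreated ones. Adgre1 was at 66.1 to 149 CPM untreated, 107 to 191 CPM with LPS and 211 to 363 CPM with octanal. In octanal against untreated, 8 of the 12 were lower and 1 higher. The part of these markers in the Rab results was not tested.

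Early endosome Rab genes went both ways. Of 9 tested in LPS against untreated, 2 were lower (22.2%, beside 17.6% of all genes) and 1 was higher (11.1%, beside 15.2%), shares near those of all genes, and the median log2 fold change was 0.01. Rab31 carries cargo from the trans-Golgi to endosomes (chr17:65651729-65772752). It measured 252, 179 and 287 CPM untreated, 63.5, 112 and 104 CPM with LPS and 149, 195 and 213 CPM with octanal. LPS libraries were below all others. The fall was 2.57-fold (log2 fold change -1.36 ± 0.251, adjusted p = 0.00549, edgeR), and octanal libraries stood 2.00-fold above LPS libraries at an adjusted p of 0.0761. Rab21 and Rab22a, its relatives in endosomal sorting, were not called in any comparison. They measured 125 ± 10.7 and 107 ± 6.7 CPM untreated, and 133 ± 5.21 and 121 ± 6.43 CPM with LPS (SD, n = 3).

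Rab20, an endosomal Rab that takes part in phagosome maturation in macrophages, was the gene higher with octanal than untreated (chr8:11453518-11478710, minus strand, overlapping the E-box stretch above). It measured 49.1, 47.3 and 65.1 CPM untreated, 53.6, 68.6 and 70.7 CPM with LPS and 95.1, 139 and 132 CPM with octanal. Every octanal library exceeded every other library, and untreated and LPS libraries overlapped. Rab20 was 2.27-fold higher with octanal than untreated (log2 fold change 1.18 ± 0.187, adjusted p = 0.00952, edgeR). Without octanal replicate 2 that adjusted p was 0.0543 at a log2 fold change of 1.07. Against LPS it was 1.90-fold higher at an adjusted p of 0.0578, the lowest of the Rab genes in that comparison. LPS alone gave a log2 fold change of 0.26 that was not called. An exon of Rab20 overlaps a gene on the opposite strand that is no row of the table, and the use of strand in counting is not given in the sources used here.

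Rab4a, which returns receptors from early endosomes to the surface, was the Rab gene with the largest rise called with LPS (chr8:123805985-123835287). It measured 2.02, 6.09 and 2.66 CPM untreated, 11.2, 8.24 and 10.5 CPM with LPS and 9.01, 5.51 and 5.43 CPM with octanal. LPS libraries exceeded all untreated ones, and the octanal range overlapped both. The rise was 2.79-fold (log2 fold change 1.48 ± 0.41, adjusted p = 0.0249, edgeR). Without LPS replicate 1 or 3, or untreated replicate 1 or 3, the adjusted p was 0.0595 to 0.0756. In untreated replicates 1, 2 and 3 the summed T cell markers were 117, 542 and 389 CPM, and replicate 2 was also the highest for Rab4a. Replicate 3 had 2.66 CPM of Rab4a, close to the 2.02 CPM of replicate 1, though its T cell sum was well above that of replicate 1. Replicate 2 was also the highest untreated library for the summed markers of B cells (338 CPM) and natural killer cells (23.5 CPM). The part of other cell types in this rise was not tested. Rab4b stood at 51.1 to 53.5 CPM untreated, 46.5 to 52.8 with LPS and 49.5 to 56.3 with octanal and was not called. The sign of its change flipped between the count and FPKM scales, and 77.6% of the 75-base stretches of its transcripts are shared with an overlapping readthrough gene.

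Of the 3 Rab5 genes, whose products fuse early endosomes, 1 was called with LPS and another lay at the threshold. Rab5b was at 199 ± 37.5 CPM untreated and 130 ± 11.6 with LPS (SD, n = 3), and its fall was called (log2 fold change -0.61, adjusted p = 0.0139, edgeR, or 0.0505 to 0.066 without LPS replicate 1 or 3). Rab5c was at 256 ± 35.3 and 198 ± 14.7 CPM, with a log2 fold change of -0.37 and an adjusted p of 0.0504. It was called under 4 alternatives, at 0.0243 with the DESeq2 Wald test, 0.0315 with a filter of 10 CPM in 3 libraries, 0.0487 without octanal replicate 1 and 0.0156 without untreated replicate 2. Rab5a was at 109 ± 9.77 and 111 ± 0.732 CPM, with a log2 fold change of 0.01. Whether the 3 genes differ from each other in their change was not tested.

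**Figure D3:**
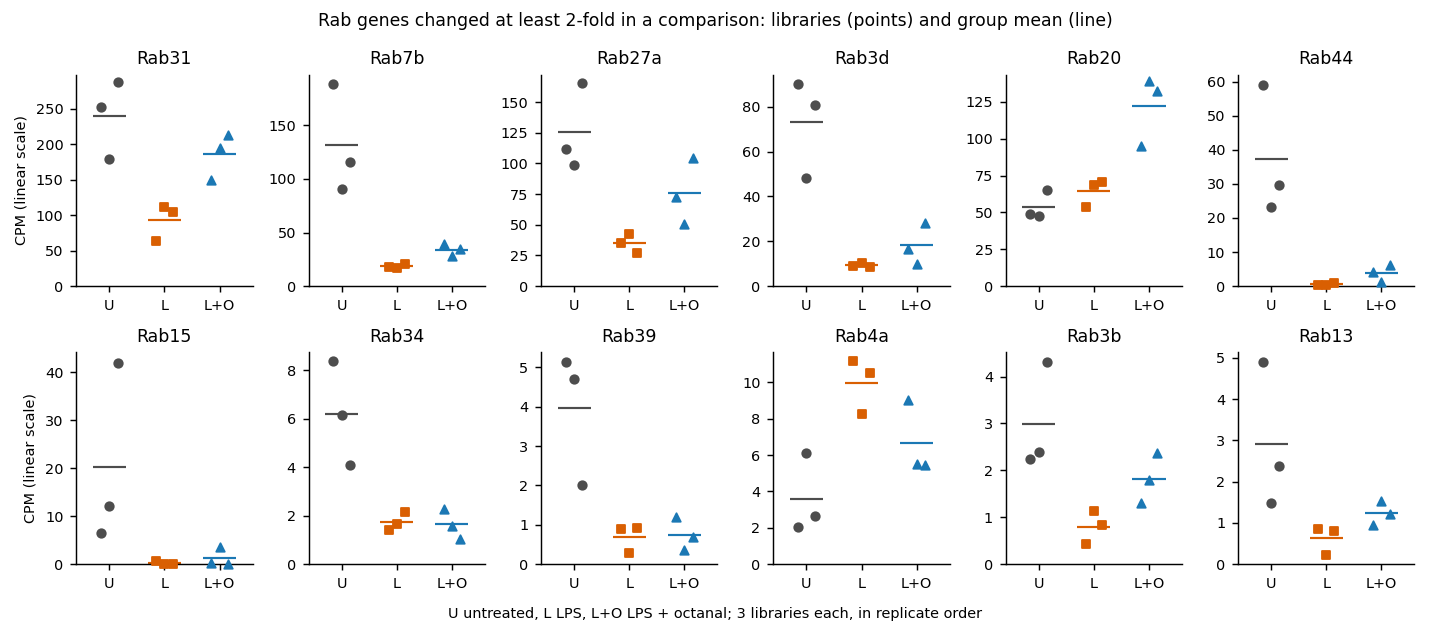
CPM (linear y axis from 0, own scale per gene) of the 12 Rab genes called with at least a 2-fold change in a comparison, by group (x axis); points are libraries in replicate order and lines the group means. Rab20 alone among these has its highest 3 values in the octanal group, 95.1 to 139 CPM.

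Among Rab genes of recycling endosomes and plasma membrane delivery, 5 of 9 tested were lower with LPS (55.6%, beside 17.6% of all genes), none was higher (beside 15.2%), and the median log2 fold change was -0.53. Rab14, which links Golgi and endosomes, had the lowest p of this class (chr2:35180205-35201120). It measured 268, 226 and 262 CPM untreated, 154, 161 and 159 CPM with LPS and 183, 204 and 222 CPM with octanal. The 3 groups did not overlap. Its fall was 1.59-fold (log2 fold change -0.67 ± 0.105, adjusted p = 0.00283, edgeR). The octanal libraries differed from the LPS libraries by 0.36 and from the untreated ones by -0.31 on the log2 scale, neither of which was called.

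Rab15, an endocytic recycling Rab best known in neurons, had the lowest fitted log2 fold change and a wide scatter (chr12:76797960-76822908). It measured 6.43, 12.1 and 42.1 CPM untreated, 0.592, 0.0939 and 0 CPM with LPS and 0.144, 3.6 and 0 CPM with octanal. All treated libraries were below all untreated ones. The untreated libraries held 1796 of its 1961 counts, 1188 of them in replicate 3. The fitted log2 fold change was -6.40 ± 1.73 (adjusted p = 0.0229, edgeR), and the adjusted p was 0.0649 to 0.0719 without untreated replicate 3, LPS replicate 2 or LPS replicate 3. Without 1 library the estimate ran from -8.75 to -5.29. Rab13, which acts in junction and membrane delivery, fell from 2.91 ± 1.77 to 0.623 ± 0.351 CPM (SD, n = 3; adjusted p = 0.0221), and its adjusted p was 0.0505 to 0.0688 without untreated replicate 1 or any 1 of the LPS replicates.

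Rab8b and Rab11a were also called lower with LPS, and their near relatives were not. Rab8 proteins carry cargo to the plasma membrane, and Rab11 proteins run the slow recycling route. Rab8b went from 289 ± 33.2 to 182 ± 9.12 CPM (SD, n = 3; adjusted p = 0.00474, edgeR) and was at 206 ± 20.7 with octanal. Rab8a was at 164 ± 14 CPM untreated, 163 ± 6.03 with LPS and 177 ± 3.93 with octanal. Rab11a went from 94.1 ± 13.2 to 65.4 ± 4.63 CPM (SD, n = 3; adjusted p = 0.0173, edgeR), which was 0.0511 to 0.0772 without LPS replicate 1 or 3 or untreated replicate 1 or 3. Rab11b was at 131 ± 12 and 139 ± 4.71 CPM. Rab10, which brings Toll-like receptor 4 to the surface of macrophages, was at 179 ± 21.2, 203 ± 13.4 and 214 ± 7.52 CPM in untreated, LPS and octanal libraries and was not called. These 5 genes, like Rab2a, Rab2b, Rab5a, Rab5b, Rab23, Rab24, Rab26 and Rab37, were chosen after their values were seen.

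Within most groups of close relatives the share of the leading gene differed between untreated and LPS libraries without overlap. Within the Rab5, Rab6, Rab9 and Rab40 groups the leading gene kept overlapping shares. In the Rab5 group, led by Rab5c, the untreated and LPS shares of Rab5b and of Rab5a did not overlap. Rab5b had means of 25.7% untreated and 21.4% with LPS, and Rab5a of 19.2% and 24.6%. Rab8b made 62.8% ± 0.729 of the Rab8 FPKM untreated, 51.8% with LPS and 52.7% with octanal. Rab11a made 64.3%, 54.2% and 60.5% of the FPKM of Rab11a, Rab11b and Rab25. Rab3d made 87.0% ± 3.76 of the Rab3 FPKM untreated, 54.1% with LPS and 69.3% with octanal, and Rab3a 7.87%, 36.2% and 22.1%. Rab31 made 60.4%, 35.3% and 54.0% of the FPKM it shares with Rab21 and Rab22a, and Rab4a 5.59%, 14.9% and 10.3% of the Rab4 pair. Shares within a library do not depend on how libraries were scaled. No test was run on these shares, which rest on 3 libraries per group, and no rate over other genes was set beside them. The relatives share none of their 75-base stretches with each other in the GENCODE annotation.

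**Figure D4:**
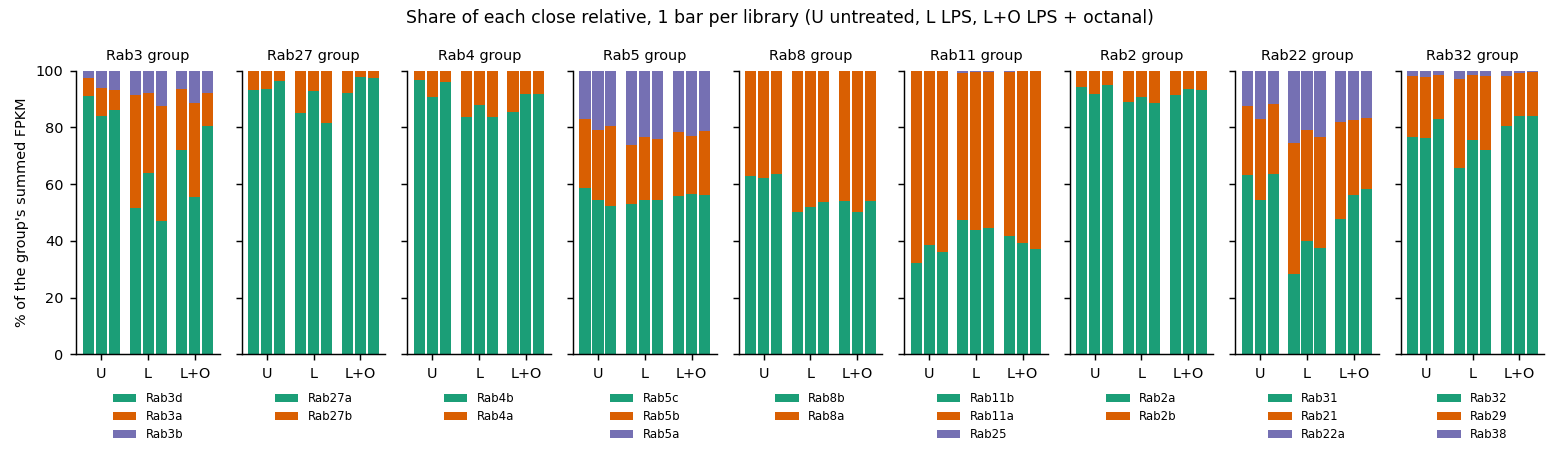
Share of each close relative in the summed FPKM of its group (y axis, percent, from 0) with 1 bar per library, in untreated, LPS and octanal order. The Rab3d part of the Rab3 bars is smallest with LPS, at a mean of 54.1%, and the Rab8b part is at 51.8% with LPS and 52.7% with octanal.

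The 14 Rab genes of ER and Golgi traffic, all of them tested, gave 3 falls (21.4%, beside 17.6% of all genes) and 1 rise (7.14%, beside 15.2%) with LPS, with a median log2 fold change of -0.09. Rab1a, which controls traffic from ER to Golgi, measured 356, 239 and 323 CPM untreated, 156, 173 and 193 CPM with LPS and 223, 293 and 267 CPM with octanal (chr11:20201432-20226856). LPS libraries were below all others. It fell 1.76-fold (log2 fold change -0.81 ± 0.169, adjusted p = 0.00891, edgeR). Rab1b, its near twin in function, went from 186 ± 31.3 to 134 ± 11.6 CPM (SD, n = 3; adjusted p = 0.0351), which was 0.0547 to 0.129 in the 6 of 9 fits without 1 library in which the call was lost: any LPS replicate, octanal replicate 3, or untreated replicate 1 or 3.

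Rab39, a Golgi-linked Rab, stood low and fell further, at 5.14, 4.71 and 2.02 CPM untreated, 0.90, 0.282 and 0.913 CPM with LPS and 1.21, 0.349 and 0.691 CPM with octanal (chr9:53684110-53706232). Treated libraries were all below the untreated ones. The log2 fold change was -2.49 ± 0.61 with LPS (adjusted p = 0.0162, edgeR) and -2.40 ± 0.608 with octanal against untreated (adjusted p = 0.0443, lost in 7 of the 9 fits without 1 library at 0.0516 to 0.136, all but those without LPS replicate 2 or untreated replicate 3). Its X-linked relative Rab39b was at 0.804 ± 0.462, 1.48 ± 0.453 and 0.924 ± 0.629 CPM (SD, n = 3) and was not called. Rab42, of the same group, had 21 counts in all and was under the filter. Rab2b, a Golgi Rab singled out as 1 of only 2 rises, went from 12.3 ± 2.71 to 19.2 ± 2.2 CPM with LPS (adjusted p = 0.03, or 0.079 to 0.0932 without LPS replicate 1 or 3 or untreated replicate 1 or 3). Exons of Rab2b overlap Tox4, a counted gene on the opposite strand, and the use of strand in counting is not given. Rab2a, with a mean of 56.7 FPKM against 4.97 for Rab2b, was not called at -0.17.

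The remaining class held 5 genes, of which 3 were tested. Rab28, known for its part in cilia, measured 35.9, 28.7 and 36.3 CPM untreated, 21, 19.3 and 19.8 CPM with LPS and 22.2, 22.5 and 24.5 CPM with octanal (chr5:41624976-41708157). Both treated groups were below all untreated libraries, and all octanal libraries were above all LPS ones. It fell 1.68-fold with LPS (log2 fold change -0.75 ± 0.123, adjusted p = 0.0035, edgeR) and was 1.46-fold lower with octanal than untreated (adjusted p = 0.0303, or 0.0563 to 0.124 in 8 of 9 fits without 1 library, all but that without untreated replicate 2). The octanal call of Rab8b (log2 fold change -0.49, adjusted p = 0.0377) was lost in the same 8 fits, at 0.0672 to 0.154. Rab23, of the Hedgehog pathway, was at 6.96 ± 1.11, 10.1 ± 1.23 and 6.29 ± 1.37 CPM (SD, n = 3) and was not called by edgeR. Rab40c was not called, with log2 fold changes of -0.02, -0.06 and -0.08.

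The 5 members under the filter were Rab9b with 13 counts in all, Rab42 with 21, Rab40b with 27, Rab25 with 55 and Rab17 with 69. Rab25, an epithelial recycling Rab, had 8 counts over the untreated libraries, 36 over those with LPS and 11 over those with octanal. Of the 69 counts of Rab17, 30 came from untreated replicate 2. No fold change is given for these genes.

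The machinery of the Rab cycle was taken from fixed lists. With LPS, 15.2% of all genes were higher and 17.6% lower. Of 36 GEFs tested, 7 were higher (19.4%) and 10 lower (27.8%), and of 35 GAPs 7 were higher (20.0%) and 11 lower (31.4%), with medians of -0.05 and -0.23 on the log2 scale. The shares that were higher lay near that of all genes. Dennd2a, a DENN-domain GEF, went from 13.5 ± 3.06 to 1.84 ± 0.536 CPM (SD, n = 3; log2 fold change -2.88, adjusted p = 0.00117, edgeR). Dennd4c changed by -0.94, and Sbf1 and Dennd2d, also of DENN type, by 0.67 and 1.05. Among the GAPs, Rab3gap2, a subunit of the complex that acts on Rab3 and also serves Rab18, went from 136 ± 6.94 to 67.3 ± 5.26 CPM (log2 fold change -1.01, adjusted p = 0.000631). Tbc1d2 changed by -2.35, Tbc1d5 by -0.996 and Tbc1d2b by -0.95. These TBC-domain proteins include Tbc1d2 and Tbc1d5, which act on Rab7.

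The prenylation and GDI list had 7 genes. With LPS, 3 were higher (42.9%, beside 15.2% of all genes) and 1 was lower (14.3%, beside 17.6%). Rabac1, a prenylated Rab acceptor, went from 134 ± 19.2 to 234 ± 15.6 CPM (SD, n = 3; log2 fold change 0.80, adjusted p = 0.00219, edgeR). Rabggta and Rabggtb, both subunits of the transferase, changed by 0.49 and 0.57, and Gdi2 by -0.33. Of 39 effectors tested, 6 were higher (15.4%, beside 15.2% of all genes) and 10 lower (25.6%, beside 17.6%). Lrrk2, a kinase that phosphorylates Rab proteins and is recruited by Rab29, went from 241 ± 73.9 to 21.5 ± 3.94 CPM and was at 73.1 ± 39.3 with octanal (log2 fold change with LPS -3.49, adjusted p = 0.0012). Rab11fip5, a Rab11 effector, changed by -3.12, Eea1, the Rab5 tether of early endosomes, by -0.68, and Ehbp1l1 by -0.62. None of the 4 lists had a gene called by edgeR in octanal against LPS, where the lowest adjusted p of the effectors named was 0.0565 for Eea1, at 136 ± 19 CPM with octanal beside 85.5 ± 8.46 with LPS. In octanal against untreated, 1 GEF was higher (2.78%, beside 2.63% of all genes), and 3 GEFs (8.33%), 4 GAPs (11.4%) and 3 effectors (7.69%) were lower, beside 6.03% of all genes.

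Which libraries entered the fit mattered to the counts. The 22 calls of LPS against untreated became 13 without LPS replicate 1 and 13 without LPS replicate 3, which is 24.5% of the Rab genes tested in each. Calls over all genes fell too, from 32.8% to 15.1% and 18.5%. In every fit without 1 library 12 calls passed, those of Rab14, Rab1a, Rab27a, Rab28, Rab31, Rab32, Rab34, Rab39, Rab3d, Rab44, Rab7b and Rab8b. The 8 calls of octanal against untreated became 5 without LPS replicate 1, LPS replicate 3 or octanal replicate 1. These were 9.43%, 9.43% and 9.26% of the Rab genes, beside 5.85%, 4.98% and 4.97% of all genes. They became 4 without untreated replicate 1 or octanal replicate 3 (7.41% in each, beside 3.95% and 4.21%). Without octanal replicate 2 they became 3 (5.56%, beside 1.88%). The calls of Rab44 and Rab7b passed in every such fit. The 0 calls of octanal against LPS became 4 without untreated replicate 2 (Rab20, Rab32, Rab44 and Rab7b, 7.41%, beside 3.33% of all genes). Without octanal replicate 1 they became 2 (Rab20 and Rab32, 3.7%, beside 3.68%). On the deposited FPKM scale the median of all genes in LPS against untreated moved by 0.11, and 60.4% of the genes called were higher beside 46.4% by counts. On that scale 21 of 47 Rab genes were called (44.7%, beside 43.7% of all genes), so the share with both directions pooled was near that of all genes. By direction, 18 of the 47 were lower and 3 higher, while of all 11832 genes tested 2045 were lower and 3121 higher.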

How the data were processed

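RNA from 9 libraries was measured by sequencing of poly(A) RNA, in 3 groups of 3 taken from the sample labels. Per the file headers, the authors deposited 2 values per gene and library, a raw count in whole numbers and an FPKM value (deposited as scaled for length and depth). The submitters' processing notes name GRCm38 as the build. For the aligner, the counting tool and strand, nothing is given in the labels or headers used here. The table had 26780 lines, of which 10 held no values, and the other 26770 were gene rows.

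Counts were fitted with the quasi-likelihood test of edgeR 4.0.16 (R 4.3.3), filterByExpr and TMM factors of 0.923 to 1.07, in 1 model of all 9 libraries. The filter kept 15447 genes and at least 99.9% of the counts of each library. P-values were adjusted by Benjamini-Hochberg over these genes, and genes under 0.05 were called. Standard errors were worked back from the test, as the absolute log2 fold change divided by the square root of the quasi-likelihood F statistic. Folds are 2 to the power of the log2 fold change, and mean ± SD are over 3 libraries of CPM or FPKM. Shares were compared by the exact permutation test. The fit was tested on simulated counts with known changes. Positions and transcript overlaps come from GENCODE M21 (GRCm38), in which all 58 genes were found. Between replicates the chi-square per degree of freedom was 42.9 to 142, above sampling noise. Each library was counted as its own sample, though this spread cannot show whether replicates were separate animals or cultures.

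The members and lists were chosen with earlier results of these data known. Genes named with full values are those called at 2-fold or more in any comparison, the 5 of highest FPKM, the lowest p of each of 6 classes, relatives of the first group and, per partner list, the 4 called genes of lowest p. Alternatives were DESeq2 1.42.0 (size factors and Wald test), other filters, 2 groups alone, a replicate block, limma 3.58.1 on log2 FPKM with a pseudocount of 1 or 0.1, and leaving out each library.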

Additional observations from a re-analysis of the deposited data

How the results depend on the processing

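The count of Rab genes called in LPS against untreated was 22 and ran from 17 to 24 over the other tools, filters and scales, and from 13 to 23 when each library was left out in turn. The 17 were of 37 Rab genes with a filter of 10 CPM in 3 libraries (45.9%), beside 4017 of all 9384 genes tested. The 24 were of 53 with the DESeq2 Wald test (45.3%), beside 6212 of all 15426 genes. The named genes called in LPS against untreated kept their direction and their call in 252 of 278 values from these alternatives. Of those 16 genes, 6 lost the call under at least 1 alternative. In octanal against LPS the count was 0, and it was 12 with the DESeq2 Wald test, 8 with the 2 groups alone, 2 with no filter on low counts, 1 at 10 CPM or more in 3 libraries, and 0 to 4 without 1 library. With DESeq2 size factors and on the FPKM scale it was 0. In octanal against untreated the count was 8 of 53 (15.1%, beside 8.67% of all genes), and it was 3 to 8 without 1 library. With the 2 groups alone it was 3 of 52 (Rab20, Rab44 and Rab7b, 5.77%), beside 404 of all 14795 genes tested. The cause was not tested.

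With the replicate number as a block, the counts were 18, 0 and 7, and Rab15, Rab1b, Rab24 and Rab2b lost their call with LPS and Rab39 its call against untreated. Same-numbered libraries deviated together with correlations of -0.09 to 0.18, so the numbers were not taken to pair libraries.

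Sign changes were found among values near 0 or with scattered libraries, none of them called. Octanal against LPS for Rab22a was 0.0248 with DESeq2 size factors, 0.0247 with its Wald test, 0.015 with no filter and 0.0226 with the 2 groups alone. On the FPKM scale (pseudocount 1, 0.1, and 1 without a filter), LPS against untreated was 0.0482, 0.0636 and 0.0482 for Rab3a and 0.0261, 0.0267 and 0.0261 for Rab4b, and octanal against LPS was -0.0184, -0.0188 and -0.0184 for Rab4b. Octanal against untreated for Rab4b was 0.00994 with DESeq2 size factors, 0.00997 with its Wald test, 0.00012 with no filter, 0.0035 with the 2 groups alone and 0.0077, 0.0079 and 0.0077 on the FPKM scale. Without 1 library, octanal against LPS ran from -1.58 to 4.75 for Rab15, -0.014 to 0.0592 for Rab22a, -1.06 to 0.0309 for Rab27b, -0.36 to 0.16 for Rab34 and -0.40 to 0.45 for Rab39. Octanal against untreated ran from -0.23 to 0.0117 for Rab1b, -0.12 to 0.0602 for Rab21, -0.39 to 0.67 for Rab39b, -0.0543 to 0.0567 for Rab4b, -0.16 to 0.0382 for Rab5c and -0.38 to 0.0195 for Rab7, and LPS against untreated from -0.18 to 0.12 for Rab3a. Depth limits the genes under about 1 CPM, among them Rab39b, and Rab43 and Rab4b share most of their sequence with overlapping genes. Like Rab2b, Rab24 (Prelid1), Rab3a (Mpv17l2), Rab5a (Pp2d1) and Rab6a (Mrpl48) overlap exons of a counted gene on the opposite strand. Rab26 overlaps exons of Traf7, a counted gene on the same strand.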
